A study of Homo sapiens with 8 samples.

Results

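The lysosomal hydrolases other than cathepsins are the soluble enzymes that take apart sugars, glycosaminoglycans, lipids, peptides, phosphate esters and DNA inside the lysosome. They were listed as 31 genes, and 26 of these were measured among 8961 genes on the arrays. A gene counted as measured when a probe set annotated to that gene alone reached a signal of 500 on at least 1 of the 8 arrays, and its brightest such probe set on average represented it. The list covers 11 glycosidases of glycolipids and glycoproteins, 7 hydrolases of glycosaminoglycans, 6 lipid hydrolases, 5 peptidases and thioesterases, and 2 enzymes for phosphate esters and DNA. Not every member is a hydrolase of this kind, since PSAP, listed with the lipid hydrolases, is the precursor of activators, and SIAE, listed with the glycosidases, is an esterase. Messenger RNA was measured in BOKU and SKG-I, which are 2 established cervical cancer cell lines, after 72 h of culture with a transfected siRNA, either a control (siCtrl) or one aimed at IGF2R (siIGF2R). The 4 groups were BOKU with siCtrl, BOKU with siIGF2R, SKG-I with siCtrl and SKG-I with siIGF2R, and the cells carried no other stated alteration. Each group was 1 RNA sample on 2 arrays, so that the duplicates were technical and no group had replicate samples. The p-values in limma rest on how unlike the siRNA changes of the 2 lines were and on variance shared across genes. The sources used here do not name which of several siRNAs against IGF2R was put on the arrays, and cells without transfection were not analysed here.

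Most lysosomal hydrolases are glycoproteins made in the endoplasmic reticulum and tagged with mannose 6-phosphate in the Golgi apparatus. IGF2R, also called the cation-independent mannose 6-phosphate receptor, binds this tag and carries the enzymes towards endosomes, where the falling pH releases them, and M6PR is a smaller receptor for the same tag. Transcription of many of these genes is under the MiT/TFE factors, such as TFEB and TFE3, which bind an E-box within the element named CLEAR. Inherited loss of single hydrolases causes lysosomal storage diseases.

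The knockdown was checked on IGF2R first. Its signal was 7288 and 6710.5 on the siCtrl arrays of BOKU against 641 and 645 with siIGF2R, and 4119.6 and 3838 against 257 and 295 in SKG-I. The groups were far apart in both lines, and IGF2R fell by 3.65 on the log2 scale (SE 0.21, adjusted p = 0.0221 by limma over 2 lines). Between duplicate arrays, log2 signals differed with an SD of 0.27 to 0.35 over all probe sets measured. Keratin genes of simple epithelium (KRT8, KRT18 and KRT19) had signals of 1939 or more on every array. KRT5 and KRT14, of stratified epithelium, stayed at or under 45.9, and CDH1 and EPCAM were at or under 50.8 in BOKU, while EPCAM was at 1247 or more in SKG-I. CDH1 in SKG-I was at 143 and 173 with siCtrl and at 619 and 652 with siIGF2R, its part in the results was not tested, and over both lines its change was 0.34 (adjusted p = 0.957 in limma). Of 11 markers of other cell types, COL1A1 and ACTA2 reached 500, and the others did not.

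The siRNAs were compared over both lines to ask which hydrolase mRNAs differed after the knockdown. PPT1 and TPP1 fell, none of the 26 rose, and the other 24 did not pass the test. The 2 that fell are 7.69% of the members, against 2.35% of all genes that fell and 2.59% that rose. At an unadjusted p under 0.05 in limma, 6 members were lower (TPP1, PPT1, NEU1, GLA, CPQ and PSAP) and 1 was higher (IDS), or 23.1% and 3.85% of the members, beside 13.9% lower and 14.4% higher among all genes. A change of at least 2-fold in both lines was seen for 0 members in either direction, beside 2.31% of genes lower and 3.14% higher. At 1.5-fold, TPP1, PPT1 and NEU1 were lower in both lines (11.5% of the members, beside 6.97% of all genes), and 0 were higher (8.38%). The methods' t-test with a 2-fold limit within a line compares duplicate arrays of 1 RNA sample. By it, TPP1 was lower in BOKU (3.85%, beside 4.42% of all genes), and in SKG-I 0 were lower (5.83%) or higher (7.31%). ARSB was higher in BOKU (3.85%, beside 6.73%), but it was measured through BOKU with siIGF2R, the group in which it is high. Nothing is read from its call.

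The changes were small and went both ways. The median log2 change of the 26 genes was -0.11 in BOKU and -0.15 in SKG-I, beside 0.03 and -0.03 over all genes. The median in SKG-I was 0.0040 with only probe sets of 1 transcript, and that in BOKU was -0.17 without BOKU siCtrl array 1 and -0.18 without BOKU siIGF2R array 1. The change was negative in both lines for 11 members, positive in both for 7 and opposite in sign for 8, beside 35.7% of all genes negative in both and 35.7% positive in both. The 7 include ARSB, which was measured through BOKU with siIGF2R, the group in which it is high. The siIGF2R arrays lay below the siCtrl arrays in both lines for 9 members (34.6%, beside 25.2% of all genes) and above them in both for IDS alone (3.85%, beside 26.4%). The array signals came from whole cultures, so that fewer cells with an mRNA and less of it in each cell cannot be told apart.

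**Figure D1:**
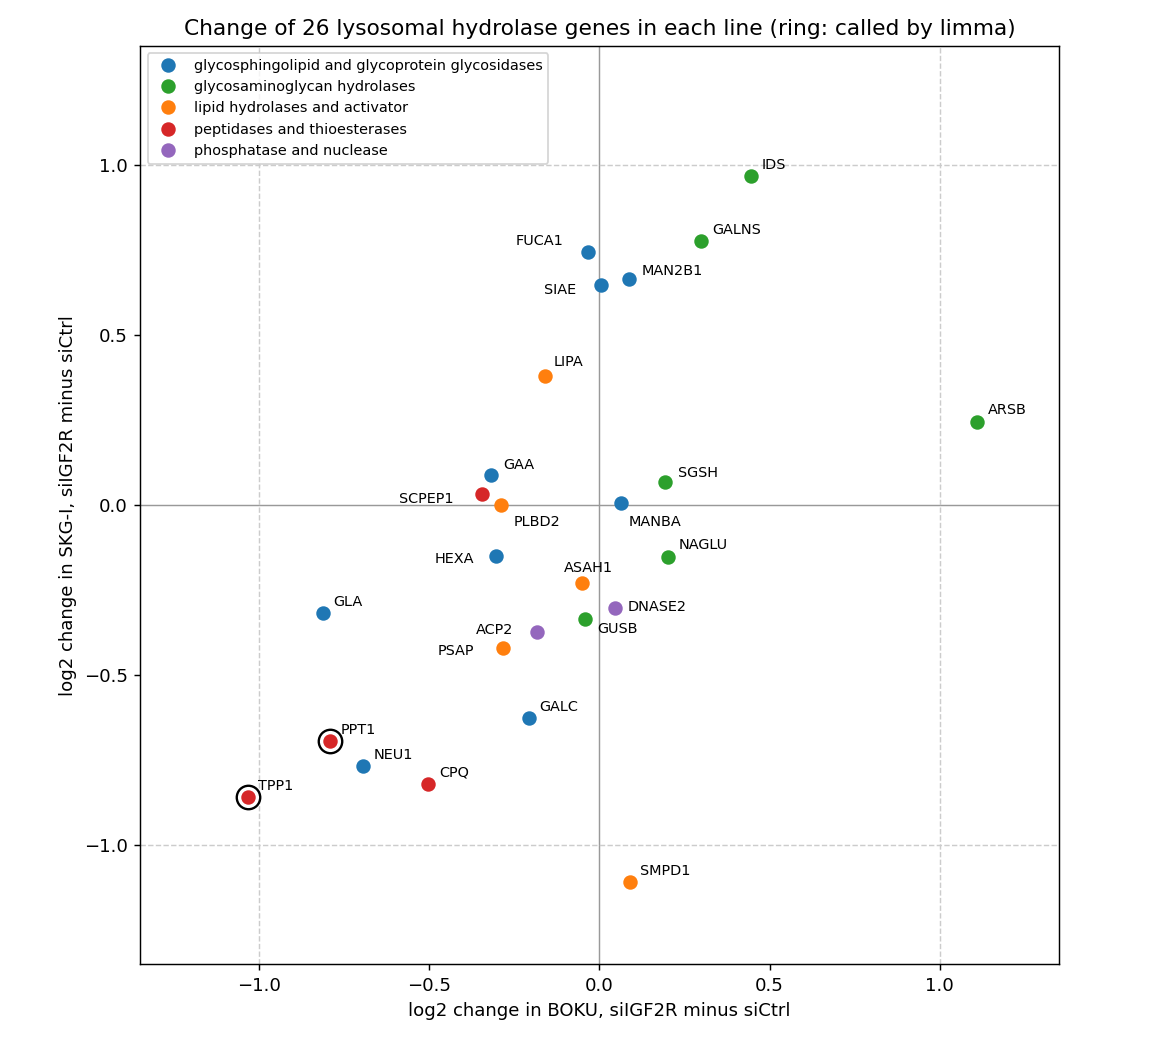
Log2 change (siIGF2R minus siCtrl, mean of duplicate arrays) of each of the 26 genes in BOKU (horizontal axis) and SKG-I (vertical axis), coloured by role, with dashed lines at 2-fold. PPT1 and TPP1, ringed, passed the test in limma and lie at the lower left with NEU1 and CPQ, while IDS, GALNS and ARSB lie at the upper right.

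The peptidases and thioesterases held both genes that fell. Of 4 measured members 2 were called, beside 2.35% of all genes that fell, and nothing is read from so small a group. PPT1, which removes fatty acyl groups from the cysteines of proteins, had signals of 10646 and 10356 with siCtrl and 5999 and 6114 with siIGF2R in BOKU. In SKG-I the signals were 14064 and 14669.5 with siCtrl and 8934 and 8815 with siIGF2R. No siIGF2R array reached any siCtrl array of its line. PPT1 fell by 0.74 on the log2 scale (SE 0.13, 95% interval -1.07 to -0.42, adjusted p = 0.0438 in limma), which is 1.68-fold, with changes of -0.79 in BOKU and -0.69 in SKG-I.

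TPP1, a serine protease that cuts tripeptides from the amino ends of proteins, had signals of 5085 and 5379 with siCtrl and 2512 and 2595.5 with siIGF2R in BOKU. In SKG-I it was at 3880.3 and 3826 with siCtrl and at 2063 and 2189 with siIGF2R. The arrays of the siRNAs did not overlap in either line. TPP1 fell by 0.95 (SE 0.17, 95% interval -1.37 to -0.52, adjusted p = 0.0460 in limma), or 1.93-fold, with -1.03 in BOKU and -0.86 in SKG-I. It was the one member lower by 2-fold or more in BOKU (3.85%, beside 4.98% of all genes). Without BOKU siCtrl array 2 the log2 change of TPP1 in BOKU was -0.994, just under 2-fold. Inherited loss of PPT1 or TPP1 causes a neuronal ceroid lipofuscinosis, a storage disease of the brain.

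Both calls lay close to the threshold. The adjusted p in limma was 0.0511 for PPT1 and 0.0558 for TPP1 without BOKU siCtrl array 2, and 0.0592 and 0.0501 without BOKU siIGF2R array 1. Without SKG-I siIGF2R array 1 it was 0.0524 for TPP1 and 0.0455 for PPT1. Without the trend of the variance no gene was called, and 2064 genes then had an unadjusted p under 0.05, 5 members among them.

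The other peptidases did not pass the test. CPQ, a carboxypeptidase that releases amino acids from dipeptides, had a log2 change of -0.66 (SE 0.23, adjusted p = 0.139 in limma), with -0.50 in BOKU and -0.82 in SKG-I. Its duplicates in SKG-I with siIGF2R were at 511 and 292, so that part of its spread was between arrays of 1 RNA sample. Its second probe set, of almost the same mean signal, had a change of -0.30 (adjusted p = 0.425 in limma), and became the brighter one without BOKU siIGF2R array 2 (-0.24), SKG-I siIGF2R array 1 (-0.34) or BOKU siCtrl array 2 (-0.43). On the same probe set, leaving out single arrays gave -0.86 to -0.46, the latter without SKG-I siIGF2R array 2. SCPEP1, a serine carboxypeptidase by sequence, was at -0.35 in BOKU and 0.03 in SKG-I.

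Of the 9 measured glycosidases of glycolipids and glycoproteins, 0 passed the test. At an unadjusted p under 0.05 in limma, 2 (NEU1 and GLA) were lower, beside 13.9% of all genes. NEU1, the sialidase that removes terminal sialic acids, came closest. Its signals were 4501 and 4194 with siCtrl and 2608 and 2758 with siIGF2R in BOKU, and 2653 and 2648 against 1553 and 1562 in SKG-I. The arrays of the siRNAs did not overlap in either line, and the log2 change was -0.73 (SE 0.18, 95% interval -1.17 to -0.30, adjusted p = 0.0748 in limma). Without BOKU siIGF2R array 2 its adjusted p was 0.0498.

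GLA, the alpha-galactosidase that acts on globotriaosylceramide, had signals of 4375 and 4432 with siCtrl and 2388 and 2626 with siIGF2R in BOKU, and of 1929 and 1962 against 1601 and 1521 in SKG-I. Its log2 change was -0.81 in BOKU, while in SKG-I it was -0.32 (mean -0.57, SE 0.21, adjusted p = 0.157 in limma). GALC, which removes galactose from galactosylceramide, was at -0.21 and -0.63, and HEXA, the alpha subunit of beta-hexosaminidase, at -0.30 and -0.15, in BOKU and SKG-I. The siIGF2R arrays lay below the siCtrl arrays in both lines for 4 of 9 measured glycosidases (NEU1, GLA, GALC and HEXA), beside 25.2% of all genes.

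Positive changes among the glycosidases included FUCA1, MAN2B1 and SIAE in SKG-I. FUCA1, the fucosidase, was at 1911 and 2016 with siCtrl and 3133 and 3451 with siIGF2R in SKG-I, a log2 change of 0.74 beside -0.03 in BOKU. MAN2B1, the acid alpha-mannosidase, had 0.67 in SKG-I and 0.09 in BOKU, and SIAE, which takes acetyl groups off sialic acids, had 0.65 and 0.01. In all 3 the siIGF2R arrays of SKG-I lay above the siCtrl arrays while those of BOKU overlapped, and the difference between the lines was not tested. GAA, the glucosidase of lysosomal glycogen, was at -0.32 in BOKU and 0.09 in SKG-I, and MANBA, the beta-mannosidase, at 0.06 and 0.01.

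**Figure D2:**
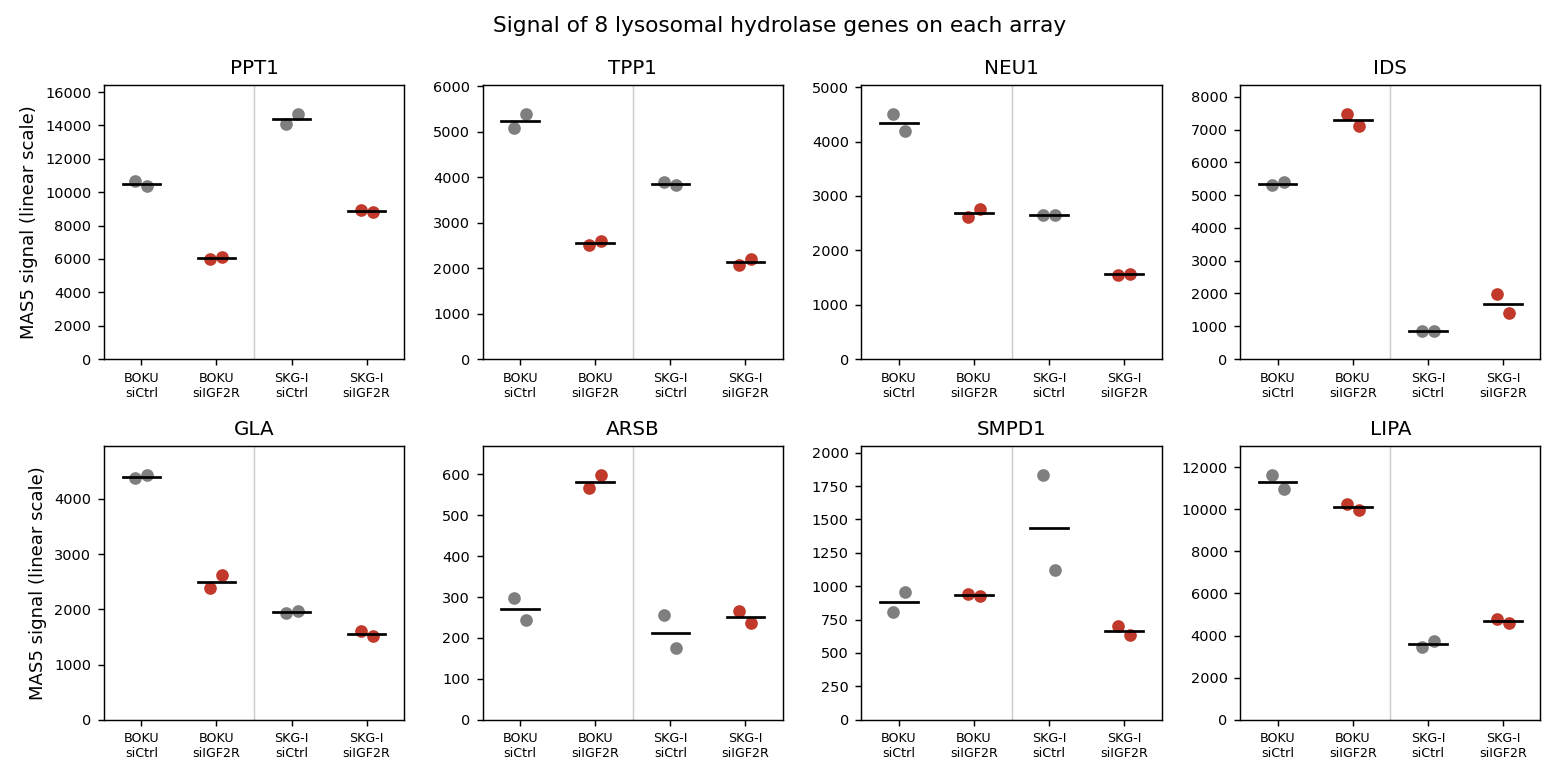
MAS5 signal (linear scale from 0, each gene on its own axis) of 8 genes on each array, where points are arrays, bars are geometric means of duplicates, grey is siCtrl and red is siIGF2R. PPT1, TPP1, NEU1 and GLA are lower and IDS is higher with siIGF2R in both lines, ARSB stands apart in BOKU and SMPD1 in SKG-I, and LIPA moves in opposite directions.

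The hydrolases of glycosaminoglycans, the sulfated sugar chains of proteoglycans, had positive medians, 0.25 in BOKU and 0.16 in SKG-I. These medians include ARSB, which was measured through the group in which it is high. Of 6 measured members, 0 passed the test. At an unadjusted p under 0.05 in limma, 1 (IDS) was higher, beside 14.4% of all genes. IDS, the sulfatase for iduronate 2-sulfate in heparan and dermatan sulfate, was at 5311 and 5394 with siCtrl and 7468 and 7122 with siIGF2R in BOKU. In SKG-I it was at 864 and 854 with siCtrl and at 1983 and 1420 with siIGF2R. Every siIGF2R array of a line was above its siCtrl arrays, and the log2 change was 0.45 in BOKU, while in SKG-I it was 0.97 (mean 0.71, SE 0.21, 95% interval 0.20 to 1.21, adjusted p = 0.103 in limma).

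ARSB, the sulfatase for N-acetylgalactosamine 4-sulfate, was at 298 and 244 with siCtrl and 566 and 598 with siIGF2R in BOKU, and at 257 and 175 against 267 and 236 in SKG-I. The groups were apart in BOKU, with a log2 change of 1.11, and overlapped in SKG-I, with 0.25 (mean 0.68, SE 0.35, adjusted p = 0.273 in limma). ARSB reached the limit of 500 only on the BOKU siIGF2R arrays, so that it was measured through the group in which it is high, and nothing is read from it as a count. It was the one member higher by 2-fold or more in BOKU (3.85%, beside 7.95% of all genes), and no member was so in SKG-I (8.21%). Without BOKU siCtrl array 2 the log2 change of ARSB in BOKU was 0.96, under 2-fold. GALNS, the sulfatase for N-acetylgalactosamine 6-sulfate and galactose 6-sulfate, was at 0.30 in BOKU, with 0.78 in SKG-I (adjusted p = 0.185 in limma). SGSH and NAGLU, both of heparan sulfate breakdown, had 0.19 and 0.20 in BOKU and 0.07 and -0.15 in SKG-I. GUSB, the beta-glucuronidase, had -0.04 and -0.33.

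Among the 5 measured genes of lipid breakdown, 0 passed the test. At an unadjusted p under 0.05 in limma, 1 (PSAP) was lower, beside 13.9% of all genes. PSAP, the precursor of the saposins that present sphingolipids to their hydrolases, had signals of 21195.5 and 21991 with siCtrl and 16417 and 19145 with siIGF2R in BOKU. In SKG-I they were 11848.5 and 12379 with siCtrl and 8947 and 9173 with siIGF2R. The groups did not overlap in either line, but the log2 change of -0.35 (SE 0.12, 95% interval -0.65 to -0.06) had an adjusted p of 0.136 in limma. After quantile normalization it was -0.21 (adjusted p = 0.319 in limma).

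SMPD1, the acid sphingomyelinase, was the one member lower by 2-fold or more in SKG-I (3.85%, beside 6.33% of all genes). Its signals there were 1832 and 1122 with siCtrl and 701 and 631 with siIGF2R, while in BOKU they were 810.2 and 956 against 945 and 926. Without the first siCtrl array of SKG-I the log2 change in that line was -0.75, which is under 2-fold, and the mean over the lines was -0.33. The siCtrl duplicates of SKG-I differed by 0.71 on the log2 scale, the arrays of BOKU overlapped, and the log2 changes were -1.11 in SKG-I and 0.09 in BOKU (mean -0.51, SE 0.32, adjusted p = 0.353 in limma). ASAH1, the acid ceramidase, was at -0.05 in BOKU, with -0.23 in SKG-I, and PLBD2, a phospholipase B-like protein, had -0.29 and 0.00.

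LIPA, the acid lipase for cholesteryl esters and triglycerides, was the one member whose arrays were apart in opposite directions. It was at 11622 and 10975 with siCtrl and 10235 and 9983 with siIGF2R in BOKU, a log2 change of -0.16, and at 3469 and 3719 against 4767 and 4589 in SKG-I, a change of 0.38. With 1 RNA sample per line and siRNA this difference was not tested, and the mean change was 0.11 (SE 0.18, adjusted p = 0.727 in limma). Among soluble lysosomal hydrolases and activators outside the members, FUCA2, GGH, NPC2 and PLA2G15 also had arrays apart in opposite directions. How many of all genes did so was not counted, so that LIPA is not read as unusual. Changes of opposite sign, with arrays apart or not, were seen for 8 of 26 members and 2565 of 8961 genes.

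The remaining measured enzymes were ACP2, an acid phosphatase, at -0.18 in BOKU and -0.37 in SKG-I, and DNASE2, the acid DNase, at 0.05 and -0.30. Neither passed the test. The 5 members without a value were of 3 kinds. IDUA and ARSA had probe sets of their own that stayed under 500, with highest signals of 339 and 474, just outside the limit, while ARSB (highest signal 598) and MANBA (800.1) were just inside. GLB1 and PPT2 were read only by probe sets annotated to several genes, and AGA was not analysed here.

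Several probe sets read 10 of the members. The 5 other probe sets of IDS also had positive changes in both lines, of 0.04 to 0.90 (BOKU) and of 0.25 to 1.77 (SKG-I), and none passed the test. The other probe sets of TPP1 had log2 changes of -1.14 (adjusted p = 0.0416) and -0.59 (adjusted p = 0.185) in limma. The other probe set of PSAP was at -0.52 (adjusted p = 0.0939 in limma). Probe sets disagreed in the sign of the mean change for HEXA and ASAH1. Those of HEXA had -0.23 and 0.26, where the second reached 500 on 1 array alone. For ASAH1, 1 of 4 had 0.21, with 0.79 in BOKU and -0.37 in SKG-I. The probe set that represents ASAH1 had -0.05 and -0.23.

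**Figure D3:**
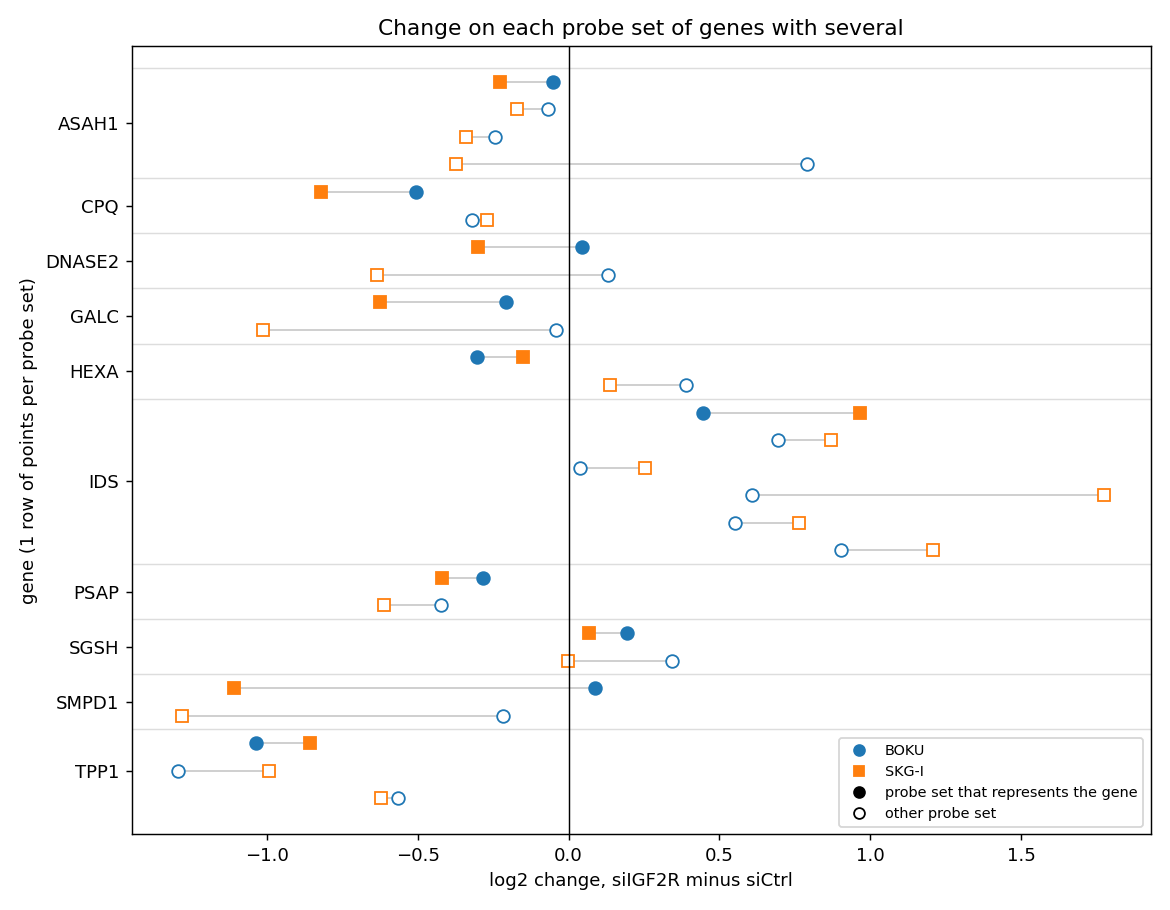
Log2 change with siIGF2R relative to siCtrl, circles for BOKU and squares for SKG-I, on every measured probe set of the 10 genes with several, where filled marks are the probe set that represents the gene. All 6 probe sets of IDS lie right of 0 and all 3 of TPP1 left of 0 in both lines, whereas those of HEXA fall on both sides.

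The promoters of the 3 members lower by 1.5-fold in both lines are shown for the E-box of the CLEAR element, CACGTG. It is a site through which MiT/TFE factors act on many lysosomal genes, and E-boxes of other sequence were not searched. The windows run from 250 bases before the transcription start to 50 bases after it, are taken from RefSeq on GRCh38.p14, and are written 5′ to 3′ on the gene's strand, with any CACGTG in capitals. All 3 genes lie on the minus strand, PPT1 at chr1:40097203-40097502, TPP1 at chr11:6619373-6619672 and NEU1 at chr6:31862772-31863071. NEU1 held 1 match, 126 bases before its start, and PPT1 and TPP1 held 0, which says only that these letters were not in those windows.
PPT1: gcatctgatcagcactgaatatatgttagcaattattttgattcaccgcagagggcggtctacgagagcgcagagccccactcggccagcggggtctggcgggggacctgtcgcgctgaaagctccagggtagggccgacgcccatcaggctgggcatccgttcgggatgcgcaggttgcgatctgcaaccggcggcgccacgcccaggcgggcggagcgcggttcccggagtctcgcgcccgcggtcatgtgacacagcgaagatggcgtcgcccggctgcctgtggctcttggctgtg
TPP1: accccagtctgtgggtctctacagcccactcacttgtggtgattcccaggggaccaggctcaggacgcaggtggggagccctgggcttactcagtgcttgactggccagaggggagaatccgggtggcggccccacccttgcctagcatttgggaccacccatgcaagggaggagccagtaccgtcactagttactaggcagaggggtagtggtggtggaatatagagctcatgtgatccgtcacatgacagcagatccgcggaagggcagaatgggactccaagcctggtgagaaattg
NEU1: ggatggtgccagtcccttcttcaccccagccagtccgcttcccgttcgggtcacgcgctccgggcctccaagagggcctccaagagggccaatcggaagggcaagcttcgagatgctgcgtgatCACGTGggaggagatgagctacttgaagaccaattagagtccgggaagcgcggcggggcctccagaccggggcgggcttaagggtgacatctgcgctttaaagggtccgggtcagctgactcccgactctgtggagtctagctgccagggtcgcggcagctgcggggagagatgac

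The table held 32 windows for 23 of the 31 members, and none for HEXA, MANBA, NAGLU, SGSH, ARSA, ASAH1, PSAP and CPQ. CACGTG, which reads the same on both strands, was found in windows of 6 members (26.1% of the 23, beside 8.77% of the 27305 genes in the table). The longer TCACGTG, searched on both strands and containing the shorter motif, was found in the same 6 (26.1%, beside 4.49%). By windows, 18.8% of those of members held CACGTG, beside 7.26% of all 35116. The stretches around the matches in the other 5 genes are shown to compare them, at chr17:80101485-80101575 (plus strand), chr17:56978084-56978129 (plus), chr12:113358543-113358588 (plus), chr16:88856954-88857141 (minus) and chr5:78986093-78986138 (minus).
GAA: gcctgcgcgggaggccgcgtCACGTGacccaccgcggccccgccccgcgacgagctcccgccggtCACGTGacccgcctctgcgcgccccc
SCPEP1: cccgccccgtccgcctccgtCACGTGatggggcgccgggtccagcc
PLBD2: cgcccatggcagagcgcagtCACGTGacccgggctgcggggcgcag
GALNS: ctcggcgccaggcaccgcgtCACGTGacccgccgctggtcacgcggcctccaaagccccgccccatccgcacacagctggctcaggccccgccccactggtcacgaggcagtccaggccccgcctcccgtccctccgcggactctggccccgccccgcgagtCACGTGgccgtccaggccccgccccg
ARSB: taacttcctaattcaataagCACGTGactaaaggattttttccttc

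GAA and GALNS held 2 matches each, and the others held 1. The changes of the 6 genes with a match differed in sign after siIGF2R, and a link between match and change was not tested. ARSB was measured through the group in which it is high, and the signs also differed among the others. The log2 change over both lines was -0.73 for NEU1, -0.16 for SCPEP1, -0.14 for PLBD2, -0.12 for GAA, 0.54 for GALNS and 0.68 for ARSB. None of these passed the test, and those of SCPEP1, PLBD2 and GAA were smaller than their SE (0.19, 0.21 and 0.24).

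Of the 26 members, 16 differed between the lines (61.5%), and 2 fell with siIGF2R (7.69%, beside 2.35% of all genes). The 16 include SIAE and MANBA, which were measured only through SKG-I, the line in which they are higher. BOKU was compared with SKG-I over both siRNAs in the same fit. Higher in BOKU were 10 members (38.5%, beside 21.9% of all genes), and 6 were higher in SKG-I (23.1%, beside 24.1%). The other 10 did not pass the test, beside 4831 of all 8961 genes. The line difference exceeded the siRNA change in size for 22 of 26 members (84.6%, beside 66.9% of all genes). The median size of the line difference was 0.81 on the log2 scale and that of the siRNA change was 0.34, beside 0.60 and 0.35 over all genes. The 22 and the median of 0.81 include SIAE and MANBA, and also ARSB, which was measured through BOKU alone.

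Members higher in BOKU were led by IDS, with signals of 5311 to 7468 on the arrays of BOKU and 854 to 1983 on those of SKG-I, a log2 difference of 2.38 (SE 0.21) or 5.20-fold. The other probe sets of IDS gave larger log2 differences, of 3.05 to 3.73, so that the fold depends on the probe set. GALC followed with 6014 to 7113 against 1062 to 1689, a difference of 2.30 (SE 0.19) or 4.94-fold. LIPA, at 9983 to 11622 in BOKU and 3469 to 4767 in SKG-I (1.38), SCPEP1, at 3538 to 4562 against 1709 to 1869 (1.19), and SGSH, at 1851 to 2308 against 974 to 1085 (1.04), came next, all 5 with adjusted p-values at or under 0.00964 in limma, and the ranges of the lines did not overlap for any of them. GLA, PSAP, CPQ, NEU1 and PLBD2 also passed the test.

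Members higher in SKG-I were led by GUSB, with 1008 to 1086 in BOKU and 3238 to 4240 in SKG-I, a log2 difference of -1.81 (SE 0.19) or 3.50-fold. SIAE was at 253 to 343 in BOKU and 735 to 1446 in SKG-I (-1.76, SE 0.27), and ASAH1 at 3034.5 to 3790.0 against 9205 to 11274 (-1.58, SE 0.15). ACP2, at 739 to 931 against 1642 to 2237 (-1.20), and MANBA, at 340.1 to 481 against 759.6 to 800.1 (-0.94), completed the 5 with the largest differences, and PPT1 (-0.50, adjusted p = 0.0261 in limma) also passed. SIAE and MANBA reached 500 on arrays of SKG-I alone, so that both were measured through the line in which they are higher, and nothing is read from the count of 6. PPT1 was lower with siIGF2R in both lines and higher in SKG-I than in BOKU under either siRNA. TPP1 did not pass the line test (0.35, SE 0.17, adjusted p = 0.144 in limma).

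**Figure D4:**
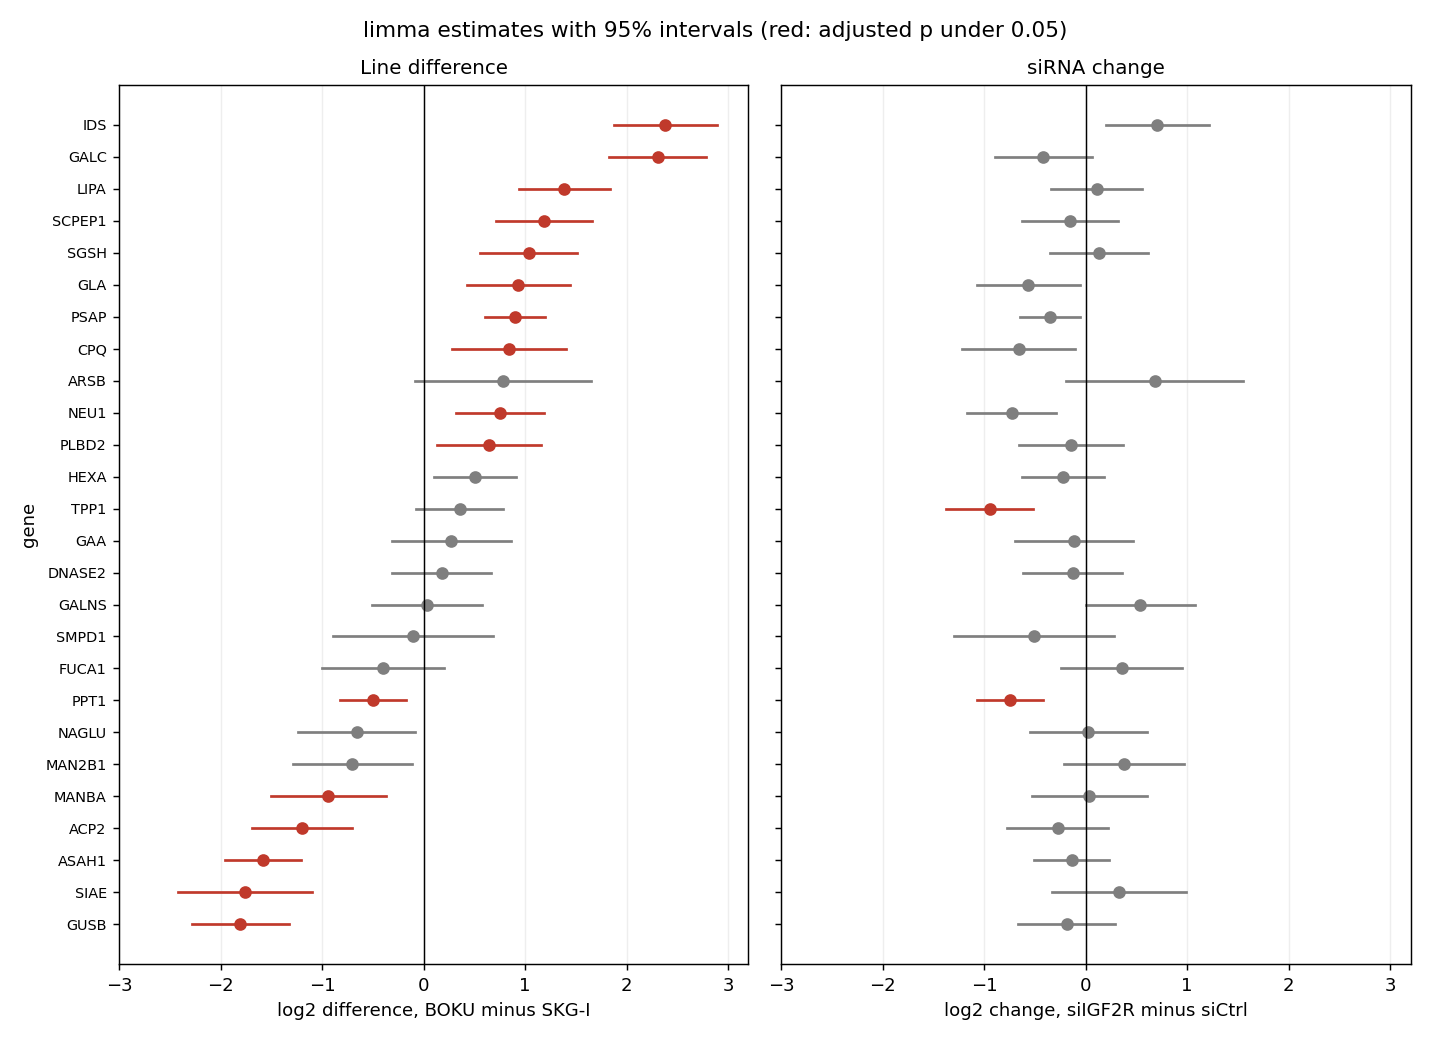
Estimates of limma with 95% intervals for the difference between the lines (left) and the change with siIGF2R (right) on the same log2 scale, genes ordered by the left panel and red where the adjusted p is under 0.05. Line differences reach 2.38 for IDS and -1.81 for GUSB, and 16 are red, with SIAE and MANBA, measured through SKG-I alone, among them. In the right panel PPT1 and TPP1 are red and all estimates lie between -0.95 and 0.71.

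Other genes of the same pathway were described from lists. Of 25 further soluble hydrolases and activators, 15 were measured and 0 passed the test, and limma gave an unadjusted p under 0.05 for 2 that were lower and 2 that were higher (13.3% each, beside 13.9% and 14.4% of all genes). In the list for tagging with mannose 6-phosphate, folding and receptors, 12 of 14 genes were measured, IGF2R fell and 0 rose. M6PR, the smaller receptor, was at 2994 and 2912 with siCtrl and 2033 and 1951 with siIGF2R in BOKU, and at 2576 and 2635 against 2148 and 1751 in SKG-I. Its log2 change was -0.50 (SE 0.18, adjusted p = 0.158 in limma). GNPTAB and GNPTG, subunits of the enzyme that starts the tag, had 0.71 (adjusted p = 0.149) and -0.36 (adjusted p = 0.419) in limma.

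Of the MiT/TFE factors, 3 of 4 were measured and 1 fell. TFE3 had signals of 6066 and 7074 with siCtrl and 2970.3 and 2950.1 with siIGF2R in BOKU, and of 4070.0 and 4206 against 1531 and 1646 in SKG-I. It fell by 1.26 on the log2 scale (SE 0.17, adjusted p = 0.0297 in limma), by more than 2-fold in both lines. The call was lost with the mean of its probe sets (adjusted p = 0.0608 in limma), without the trend of the variance (0.105) and without the term for the line. MITF was at 276 and 351 with siCtrl and 359 and 272 with siIGF2R in BOKU, and at 2153 and 1962 against 3955 and 3298 in SKG-I. The siIGF2R arrays of MITF lay above the siCtrl arrays in SKG-I and overlapped with them in BOKU, and its mean change was 0.41 (adjusted p = 0.363 in limma). TFEB, at 259.6 to 814 over the arrays, was at -0.45 in BOKU, with 0.50 in SKG-I (mean 0.02, adjusted p = 0.974 in limma).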

How the data were processed

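The mRNA of BOKU and SKG-I was hybridised to GeneChip U133 Plus 2.0 arrays, with 8 arrays of 4 RNA samples, and samples were grouped by line and siRNA as labelled. The authors deposited MAS5 signals, linear intensities with background subtracted and probes summarised, for each probe set on each array. Each array has about the same mean after trimming 2% of values at each end, although the methods give another target, so levels are relative within an array. Of 54675 probe sets, 62 controls were left out, and 16517 were kept, those that reached 500 on 1 array or more. Probe sets were named by the platform annotation, with symbols updated through RefSeq.

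Signals were used on a log2 scale without floor, constant or further normalization, and duplicates, which carried the same total RNA, were averaged. The model in limma 3.58.1 (R 4.3.3) had the siRNA and the line as terms and a trend of the variance, with 1 residual and 4.82 prior degrees of freedom. Tests were two-sided, p-values were adjusted by Benjamini-Hochberg over all kept probe sets, and those under 0.05 were called. The number of RNA samples, not the arrays, limits the precision. The procedure was tested on simulated data. Alternatives covered filters, scaling, a floor of 100, a constant of 64, the averaging of duplicates and probe sets, the variance model, the terms, the methods' t-test, a 1.5-fold limit and leaving out each array.

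The members, lists and rules were chosen with earlier results of these data known. Values on every array were given for IGF2R, called members, members 2-fold changed in a line, and members with opposite changes. For the line difference, the 5 largest in each direction among called members were named, with their range over the arrays of each line. Values of NEU1, GLA, IDS, PSAP, M6PR, the MiT/TFE factors, and of FUCA1 and CPQ in 1 line, were added after their values were seen. Promoters came from RefSeq on GRCh38.p14. Protein sequences were not used here.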

Additional observations from a re-analysis of the deposited data

Results flagged for a closer look

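LIPA was singled out because its arrays moved in opposite directions in the lines. Both siIGF2R arrays lay below both siCtrl arrays in BOKU, with a log2 change of -0.16, and above them in SKG-I, with 0.38, so that the changes differed by 0.54. TFEB, outside the hydrolases, did the same, with -0.45 in BOKU and 0.50 in SKG-I and a difference of 0.95. FUCA2, GGH, NPC2 and PLA2G15, of the further soluble hydrolases and activators, did so too. Their changes in BOKU and SKG-I were 0.60 and -0.33, 0.37 and -0.53, -0.38 and 0.15, and -0.18 and 0.72. How many of all genes did so was not counted, so that none of these genes is read as unusual. Changes of opposite sign, with arrays apart or not, were seen for 2565 of 8961 genes. With 1 RNA sample per line and siRNA, none of these differences was tested.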

How the results depend on the processing

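Of the 2 members that fell, TPP1 alone passed without a filter and after quantile normalization (1 each), PPT1 alone passed with only probe sets of 1 transcript (1), and 0 passed with a filter at 250, without the trend of the variance, with probe sets averaged per gene, without a term for the line, or by the methods' t-test with a 2-fold limit in both lines. Within BOKU the methods' t-test passed 1 member lower (TPP1) and 1 higher (ARSB), or 1 and 0 after Benjamini-Hochberg adjustment, and within SKG-I 0 either way. ARSB was measured through the group in which it is high, so that nothing is read from its call. With arrays as separate samples 9 fell and 4 rose, beside 2217 and 2311 of all genes. With a replicate block added 9 fell and 3 rose, beside 2088 and 2162. ARSB is among those that rose in both settings. The duplicate arrays share RNA, and the array numbers did not pair the samples (correlations of -0.01 to 0.13). With the block, PPT1 and TPP1 had adjusted p-values of 0.000148 and 0.000102 in limma. Leaving out single arrays left 0 to 3 that fell and 0 to 0 that rose. Over all genes, 211 fell and 232 rose in the model reported, 0 and 0 without the trend or the line term, 63 and 49 with the mean of probe sets, and 2217 and 2311 with arrays as separate samples. Leaving out single arrays gave 143 to 453 and 135 to 496. The directions of PPT1, TPP1, NEU1, IDS and TFE3 were the same in every alternative in which they were measured.

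The median change in BOKU moved to -0.18 (500 on all arrays), -0.15 (median scaling), -0.054 (mean of probe sets) and -0.17 (1 transcript), and that in SKG-I to -0.23 (500 on all arrays), -0.079 (mean of probe sets) and 0.0040 (1 transcript). Leaving out single arrays gave -0.18 to -0.11 and -0.19 to -0.11. At 1.5-fold 3 members were lower in both lines. Counts between the lines were 9 to 13 higher in BOKU and 5 to 9 higher in SKG-I in 21 alternatives. The number of members measured varied between 18 and 28. The 13 and the 9 were reached with arrays as separate samples, which share RNA. Counts of all genes between the lines were not taken in the alternatives, so that nothing is read from these ranges. The causes of lost calls were not tested.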
